A study of Mus musculus with 4 samples.

Results

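The genes described here are Pde10a and 9 further cyclic nucleotide phosphodiesterase genes, Pde3a, Pde3b, Pde4a, Pde4b, Pde4c, Pde4d, Pde7a, Pde7b and Pde8a. They were 10 of the 22556 genes in an RNA-seq table of whole mouse lungs at embryonic day 16.5. Pde10a was chosen because its level rose in both Shh-Stk11 libraries, so its own genotype difference is a description and carries no p-value. The other members were chosen by family with earlier results of these libraries known.

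The study compared 2 Control with 2 Shh-Stk11 lungs. Every embryo carried the Shh-Cre driver, whose activity in the lung lies in the endoderm and the epithelium that it gives rise to. Controls had 1 floxed and 1 intact allele of Stk11 (Shh-Cre; Stk11F/+), whereas Shh-Stk11 embryos had both alleles floxed (Shh-Cre; Stk11F/F). Stk11 encodes a tumor suppressor kinase. The labels gave the strain as C57BL/6, the study's methods speak of mixed backgrounds, and the deletion spared mesenchyme, vessels and blood. Because RNA came from the whole organ, a lower level could reflect fewer cells of a type or less RNA per cell. A higher level could likewise reflect more cells of a type or more RNA per cell. These cannot be told apart.

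Cyclic AMP (cAMP) and cyclic GMP (cGMP) are second messengers made by adenylyl and guanylyl cyclases. Phosphodiesterases break them down and so set how far and how long protein kinase A (PKA), EPAC proteins and protein kinase G are active. PDE3, PDE10 and some other families accept both nucleotides, whereas PDE4, PDE7 and PDE8 are specific for cAMP. PDE4 enzymes are drug targets in inflammatory airway disease, and PDE10A is best known from the medium spiny neurons of the striatum.

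The 4 libraries corresponded to about 30.8 to 37.99 M reads, as estimated from the steps between low values. Values are FPKM, reads scaled by the length of the transcript and by the depth of the library, so that levels of different genes can be compared per length. Stk11 itself was at 44.0 and 45.5 FPKM in Control and at 29.5 and 25.95 FPKM in Shh-Stk11. Both Shh-Stk11 libraries were below both Control libraries, with a log2 fold change of -0.69 (SE 0.12, limma adjusted p = 0.0499), and the adjusted p was above the threshold of 0.05 in 12 of 14 alternative settings. Xist was at 0.239 FPKM and Ddx3y at 23.5 FPKM in Shh-Stk11 2, whereas the other libraries had Xist at 65.1 to 169 FPKM and Ddx3y at 0 to 0.0285 FPKM. The 2 Shh-Stk11 lungs therefore came from embryos of different sex, which the labels did not give.

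The annotated starts of the tested members with the largest log2 fold changes are shown first, as 250 bases upstream of each start in RefSeq (GRCm38.p6). They are given so that the starts of Pde10a, Pde4d and Pde7b can be compared. Each runs 5′ to 3′ on the strand of the gene, and capitals mark the letters of a searched motif. Pde10a had 2 windows on the plus strand of chromosome 17, at chr17:8801495-8801744 and chr17:8849735-8849984. Pde4d had a window on the plus strand at chr13:108653927-108654176, and Pde7b had a window on the minus strand at chr10:20548329-20548578.
Pde10a, window nearer the start of the chromosome: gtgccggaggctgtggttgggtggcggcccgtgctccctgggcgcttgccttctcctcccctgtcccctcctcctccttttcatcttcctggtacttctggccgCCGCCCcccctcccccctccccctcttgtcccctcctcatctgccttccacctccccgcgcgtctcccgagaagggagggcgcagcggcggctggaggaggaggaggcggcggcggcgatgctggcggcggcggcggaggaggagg
Pde10a, window farther along: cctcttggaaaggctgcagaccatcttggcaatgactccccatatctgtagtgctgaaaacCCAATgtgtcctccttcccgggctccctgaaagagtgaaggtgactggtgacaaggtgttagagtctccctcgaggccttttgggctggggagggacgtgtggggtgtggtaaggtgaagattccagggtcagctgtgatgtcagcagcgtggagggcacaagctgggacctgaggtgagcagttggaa
Pde4d: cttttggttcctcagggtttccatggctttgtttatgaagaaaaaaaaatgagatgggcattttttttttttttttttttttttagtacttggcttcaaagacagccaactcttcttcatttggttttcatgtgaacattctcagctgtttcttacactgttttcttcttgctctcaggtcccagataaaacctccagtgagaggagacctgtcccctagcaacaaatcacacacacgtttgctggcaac
Pde7b: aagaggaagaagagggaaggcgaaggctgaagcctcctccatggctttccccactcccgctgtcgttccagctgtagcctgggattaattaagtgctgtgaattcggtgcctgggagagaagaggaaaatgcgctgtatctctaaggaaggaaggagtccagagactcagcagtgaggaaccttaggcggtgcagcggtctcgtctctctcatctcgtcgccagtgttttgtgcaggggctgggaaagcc

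The first Pde10a window was rich in G and C, at 72.8%, and held a GC box 146 bases before the start. The other Pde10a window had 56.0% G and C and held a CCAAT box 189 bases before the start. The windows of Pde4d (38.8% G and C) and Pde7b (55.2%) held none of the motifs searched. Motifs were matched by their letters on both strands: the cAMP response element TGACGTCA, its short form TGACG, which lies within it, the GC box GGGCGG, the CCAAT box CCAAT and the TATA box TATAAA. Of the 10 members, 7 had windows in the RefSeq table, 13 windows in all. The full cAMP response element was in 0 of these 13 windows and in 1.55% of the 32851 windows of all genes. The short form was in 3 of the 13, in Pde4a, Pde4b and Pde8a, against 17.8% of all windows. The GC box was in 4 windows (Pde10a, Pde4a and Pde8a), the CCAAT box in 3 (Pde10a, Pde4a and Pde4c) and the TATA box in 0, against 32.7%, 33.8% and 12.4% of all windows. A match describes letters only, and which start was used in these lungs was not measured.

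Pde10a, the gene for an enzyme that degrades both cAMP and cGMP, was at 0.6599 FPKM in Control 1 and 0.707 FPKM in Control 2. It was at 5.67 FPKM in Shh-Stk11 1 and 4.88 FPKM in Shh-Stk11 2. The group means were 0.684 ± 0.0334 and 5.28 ± 0.556 FPKM (SD, n = 2). Every Shh-Stk11 library was above every Control library, by 6.91 to 8.59 times in the 4 pairs of libraries, and replicates lay close together in both genotypes.

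On the log2(FPKM + 0.1) scale the difference was 2.78, with an SE of 0.20. Ranked by log2 fold change, Pde10a was number 33 of the 13770 genes tested, those with a mean of at least 0.5 FPKM. If all its reads fell on the longest annotated transcript of 7769 bases, its values corresponded to about 190 and 169 reads in Control and 1320 and 1225 reads in Shh-Stk11. Long transcripts tended to be higher in Shh-Stk11: the tenth of genes with lengths like that of Pde10a had a median log2 fold change of 0.19, against -0.05 over all genes tested. With the trend on length and GC content removed, the difference of Pde10a was 2.64.

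**Figure D1:**
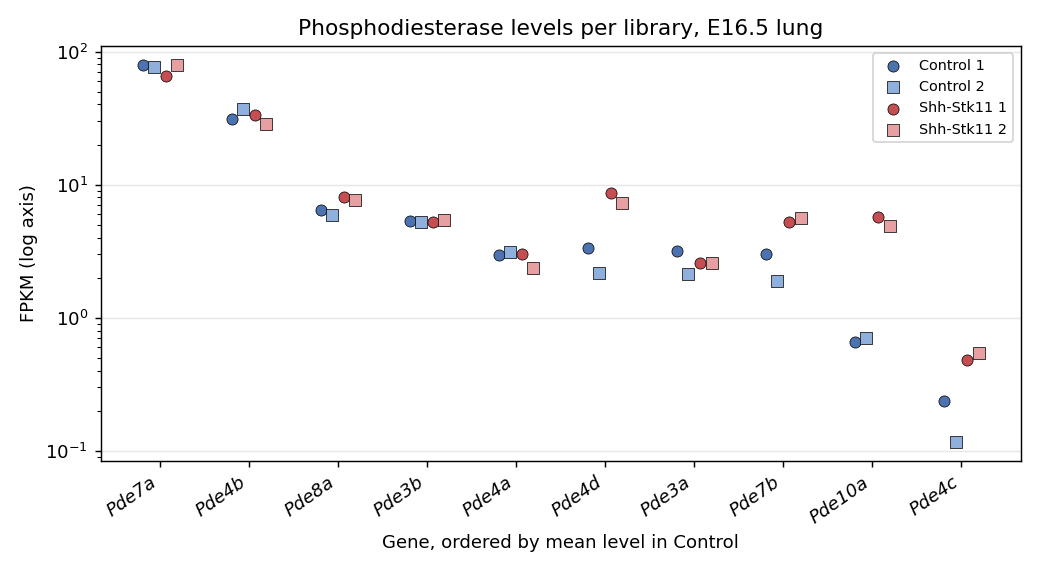
FPKM of the 10 phosphodiesterase genes in each library, on a log axis, with genes ordered by mean level in Control. Both Shh-Stk11 libraries lie above both Control libraries for Pde8a, Pde4d, Pde7b, Pde10a and Pde4c, and the groups overlap for the other 5 genes.

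The PDE4 family, cAMP-specific enzymes that differ in their anchoring and tissue distribution, held a further change. Pde4d, a widely expressed member with many isoforms, was at 3.33 and 2.17 FPKM in Control and at 8.61 and 7.31 FPKM in Shh-Stk11. The lower Shh-Stk11 library was 2.196 times the higher Control library, so the groups did not overlap. Pde4d rose by 1.53 on the log2 scale (SE 0.23, 95% interval 0.98 to 2.07), with a limma adjusted p of 0.0289. Of the 8 members tested besides Pde10a, 1 passed the threshold, where 2.27% of all genes tested passed it in either direction and 0.98% as higher. The call was lost in 7 of 14 alternative settings, among them the fit with length and GC effects taken out (log2 fold change 1.56, adjusted p = 0.0504), the fit without a filter (adjusted p = 0.115) and each omission of a library. Without Control 1, Control 2, Shh-Stk11 1 or Shh-Stk11 2 the adjusted p of Pde4d was 0.0685, 0.143, 0.104 and 0.0655, and its log2 fold change lay between 1.23 and 1.82.

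Pde4b, the most abundant PDE4 gene and one known to be induced in inflammatory cells, was at 31.4 and 36.9 FPKM in Control and 33.1 and 28.6 FPKM in Shh-Stk11. The groups overlapped, and its log2 fold change of -0.14 had a 95% interval of -0.49 to 0.20. Pde4a was at 2.94 and 3.09 FPKM in Control and 3.03 and 2.37 FPKM in Shh-Stk11, again with overlap (log2 fold change -0.17, 95% interval -0.62 to 0.29). Pde4c was the lowest member and was not tested, since its mean was under 0.5 FPKM. It was at 0.237 and 0.116 FPKM in Control and 0.477 and 0.543 FPKM in Shh-Stk11, which corresponded to about 29, 12, 48 and 58 reads on its longest transcript. Both Shh-Stk11 values were above both Control values, and with the filter lowered to 0.1 FPKM the log2 fold change was 1.17 (SE 0.33, limma adjusted p = 0.164).

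Within the family, Pde4d made up 8.79% and 5.13% of the summed PDE4 FPKM in Control and 19.0% and 18.8% in Shh-Stk11. Pde4b made up 82.8% and 87.3% in Control and 73.2% and 73.7% in Shh-Stk11. These shares do not depend on the scaling between libraries, and in both cases the groups did not overlap. The summed PDE4 level was 37.9 and 42.3 FPKM in Control and 45.2 and 38.9 FPKM in Shh-Stk11, where the groups overlapped.

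PDE7 enzymes are cAMP-specific and are known from T cells and from the brain. Pde7b was at 3.03 and 1.87 FPKM in Control and at 5.21 and 5.57 FPKM in Shh-Stk11. All Shh-Stk11 values were above all Control values, by 1.72 to 2.98 times. The log2 fold change of 1.14 (SE 0.24, 95% interval 0.56 to 1.72) missed the threshold (limma adjusted p = 0.0745). With the length and GC trend removed the difference was 0.94.

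Pde7a, by contrast, was the most abundant member, at 79.1 and 76.9 FPKM in Control and 65.9 and 79.5 FPKM in Shh-Stk11. The groups overlapped, with a log2 fold change of -0.11 (95% interval -0.44 to 0.23). Pde7b thus held 3.69% and 2.38% of the summed PDE7 level in Control and 7.32% and 6.55% in Shh-Stk11. Whether the changes of Pde7a and Pde7b, or those of Pde4b and Pde4d, differed from each other was not tested. With 2 libraries a genotype, the smallest two-sided p of an exact permutation test is 0.333.

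Pde8a, the gene for a high-affinity cAMP-specific enzyme, was at 6.45 and 5.89 FPKM in Control and 8.05 and 7.66 FPKM in Shh-Stk11. The groups did not overlap, but the difference was small. Its log2 fold change was 0.34 (SE 0.13, 95% interval 0.02 to 0.67), and it missed the threshold (limma adjusted p = 0.296).

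The PDE3 genes encode enzymes that degrade cAMP and are inhibited by cGMP, Pde3a being known from heart and vascular smooth muscle and Pde3b from fat and liver. Pde3a was at 3.17 and 2.11 FPKM in Control and 2.57 and 2.58 FPKM in Shh-Stk11, so that both Shh-Stk11 values lay between the Control values. Its log2 fold change was -0.01 with a 95% interval of -0.56 to 0.55, and it became -0.45 with the length and GC trend removed. Pde3b was at 5.36 and 5.27 FPKM in Control and 5.26 and 5.45 FPKM in Shh-Stk11. It was the member with the narrowest spread over all libraries, and its log2 fold change of 0.01 had a 95% interval of -0.32 to 0.34. The annotation placed an antisense gene over Pde3a and over Pde7a. Whether the counting used strand was not given in the sources used here, so reads of the partners cannot be told apart.

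Counted over the members, 9 of 10 passed the filter. Of the 8 tested besides Pde10a, 1 was called higher and 0 lower, where 0.98% of all genes tested were called higher and 1.29% lower. The median log2 fold change of these 8 was 0.00, beside -0.05 over all genes. In 3 of the 8 (Pde4d, Pde7b and Pde8a) both Shh-Stk11 values exceeded both Control values, and in 0 of the 8 both were lower. Over all genes tested these patterns were found for 19.2% and 27.6%, or 46.8% in either direction. An unadjusted p under 0.05 was reached by 3 of the 8 and by 15.2% of all genes tested, the background for the counts of unadjusted p that follow.

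**Figure D2:**
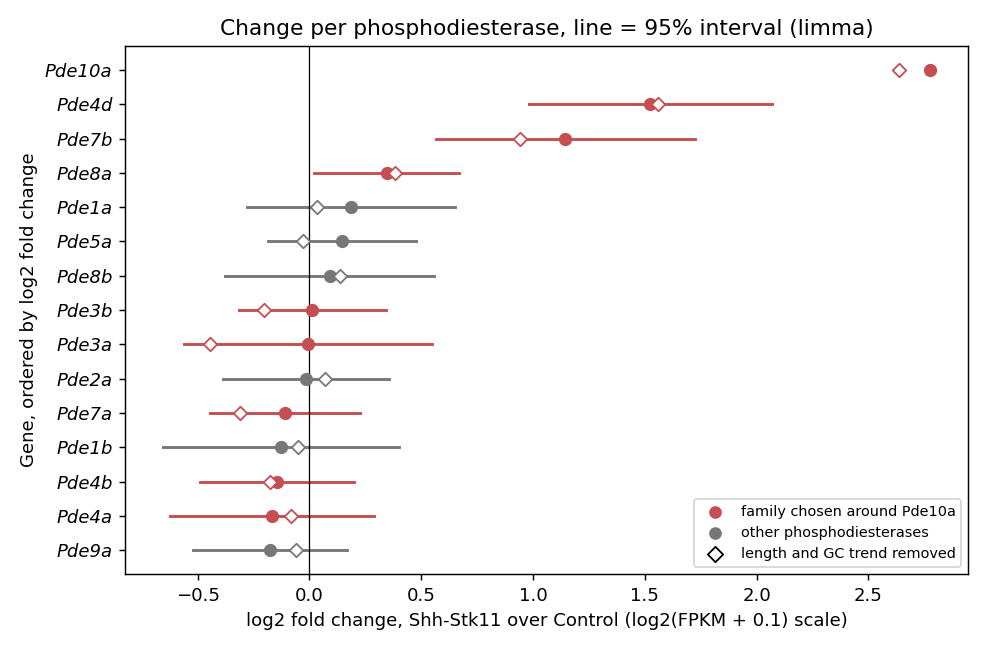
Log2 fold change of Shh-Stk11 over Control for the 15 phosphodiesterase genes tested, with limma 95% intervals as lines (none for Pde10a, which was chosen on this contrast) and values after removal of the length and GC trend as open diamonds. Pde10a lies at 2.78, Pde4d at 1.53 and Pde7b at 1.14, the interval of Pde8a starts at 0.02, and the intervals of the remaining genes include 0.

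The order of levels also shifted. In Control, Pde7a and Pde4b were followed by Pde8a and Pde3b, and the lowest value of each was above the highest value of the next. Pde4a, Pde4d, Pde3a and Pde7b came next, with ranges that overlapped between neighbours. Pde10a ranked number 9 in both Control libraries, above Pde4c alone. In Shh-Stk11 1 Pde10a ranked number 5 and in Shh-Stk11 2 number 7. By group means Pde4d and Pde8a shared the place after Pde4b, at 7.96 and 7.86 FPKM, followed by Pde7b, Pde3b and Pde10a at 5.39, 5.36 and 5.28 FPKM, neighbours that did not differ beyond their ranges.

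The summed level of all members was 135.7 and 135.1 FPKM in Control and 137.9 and 144.5 FPKM in Shh-Stk11, of which Pde7a and Pde4b made up most. Pde10a, Pde4d and Pde7b together amounted to 7.02 and 4.75 FPKM in Control and 19.5 and 17.8 FPKM in Shh-Stk11. Their share of the summed level was 5.17% and 3.52% in Control and 14.1% and 12.3% in Shh-Stk11. Pde10a alone accounted for 0.486% and 0.524% in Control and 4.11% and 3.38% in Shh-Stk11. Since these genes were put together with their values known, the sums are a description.

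**Figure D3:**
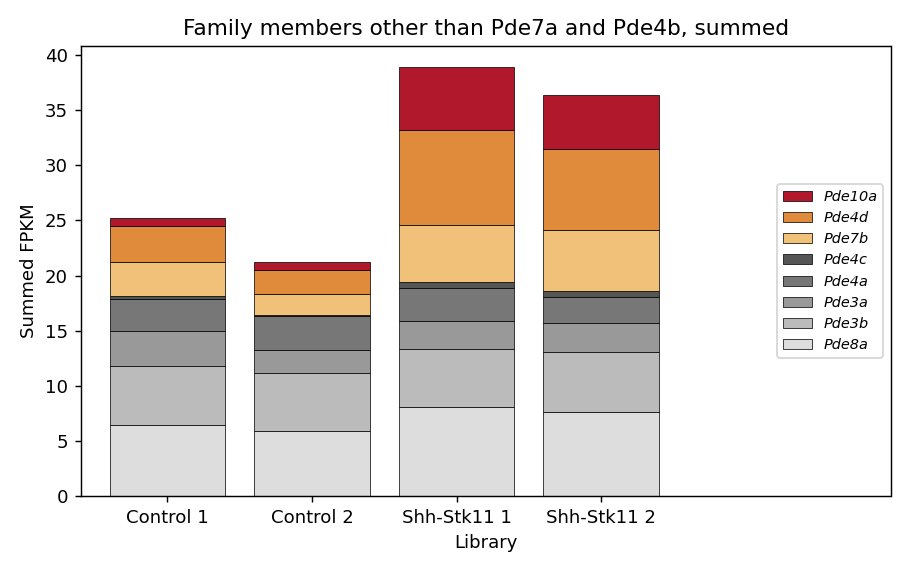
Stacked FPKM of the 8 members other than Pde7a and Pde4b in each library. The stacks reach 25.2 and 21.2 FPKM in Control and 38.9 and 36.4 FPKM in Shh-Stk11, and the coloured parts are Pde10a, Pde4d and Pde7b.

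The table held 13 other cyclic nucleotide phosphodiesterase genes, of which 6 passed the filter and 0 were called by limma in either direction. None of the 6 had an unadjusted p under 0.05 (0 of 6). Pde5a, the cGMP-specific enzyme of vascular smooth muscle that sildenafil inhibits, was the highest of them, at 45.8 and 37.9 FPKM in Control and 47.0 and 45.1 FPKM in Shh-Stk11 (log2 fold change 0.14). Pde9a, also cGMP-specific, was at 11.6 and 14.1 FPKM in Control and 11.5 and 11.1 FPKM in Shh-Stk11 (log2 fold change -0.18). For Pde5a the groups overlapped, and for Pde9a both Shh-Stk11 values were lower by a small margin.

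Pde2a, which degrades both nucleotides and is stimulated by cGMP, had a log2 fold change of -0.02 (95% interval -0.39 to 0.36). For Pde8b, the paralog of Pde8a, it was 0.09, and for the calcium-dependent enzymes Pde1a and Pde1b it was 0.19 and -0.13. Their values over the 4 libraries ranged from 6.86 to 8.53 FPKM for Pde2a, 8.08 to 11.3 FPKM for Pde8b, 2.03 to 2.72 FPKM for Pde1a and 1.25 to 1.499 FPKM for Pde1b. Of these 4 genes, Pde1b had both Shh-Stk11 values below both Control values.

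The other 7 genes were under the filter. Pde1c, also calcium-dependent, was at 0.216 and 0.0987 FPKM in Control and 0.715 and 0.420 FPKM in Shh-Stk11. The groups did not overlap, and with the filter at 0.1 FPKM the log2 fold change was 1.38 (SE 0.38, limma adjusted p = 0.152). The photoreceptor genes Pde6a, Pde6b, Pde6c and Pde6g and the gene Pde11a stayed at or below 0.0936 FPKM in every library, which corresponded to at most 8 reads each. Pde6h, a cone photoreceptor subunit, was at 0.0749 and 0.181 FPKM in Control and 0.185 and 0.343 FPKM in Shh-Stk11, with a log2 fold change of 0.68 (SE 0.40, limma adjusted p = 0.4998) with the filter at 0.1 FPKM. In 4 of these 7 genes, Pde1c, Pde6g, Pde6h and Pde11a, both Shh-Stk11 values were above both Control values, as in 17.2% of the 4418 genes under the filter with a value above 0 in any library. Apart from Pde1c, these levels rest on few reads. Pde1c corresponded to about 70 and 27 reads in Control and 188 and 119 in Shh-Stk11 on its longest transcript.

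The remaining genes of the pathway were taken from 6 lists, with 53 genes in the table and 46 tested. Of these, 1 was called higher and 0 lower, where 0.98% and 1.29% of all genes tested were called, so that the share is near the background. The median log2 fold change was -0.03, beside -0.05 over all genes. The called gene was Akap11, which encodes an anchoring protein for PKA. Akap11 was at 5.88 and 6.50 FPKM in Control and 12.8 and 10.7 FPKM in Shh-Stk11, without overlap (log2 fold change 0.91, SE 0.15, limma adjusted p = 0.0385). The call was lost in 9 of 14 alternative settings, and the difference became 0.51 (adjusted p = 0.205) with the length and GC trend removed. Without Control 1, Control 2, Shh-Stk11 1 or Shh-Stk11 2 the adjusted p of Akap11 was 0.205, 0.166, 0.179 and 0.0794.

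Among the adenylyl cyclases, which make cAMP, 8 of 10 were tested and 0 were called in either direction. Both Shh-Stk11 values were below both Control values in 5 of the 8 and above in 1, beside 27.6% and 19.2% of all genes tested. An unadjusted p under 0.05 was reached by 1 (15.2% over all genes). The log2 fold change was negative for 7 of the 8, with a median of -0.21 beside -0.05 over all genes. The exception was Adcy7, at 8.59 and 8.20 FPKM in Control and 12.2 and 11.8 FPKM in Shh-Stk11 (log2 fold change 0.51, limma adjusted p = 0.1004). The groups did not overlap for Adcy7. Adcy1, a cyclase stimulated by calcium and calmodulin, was at 1.05 and 1.04 FPKM in Control and 0.781 and 0.294 FPKM in Shh-Stk11 (log2 fold change -0.96, limma adjusted p = 0.361). The Shh-Stk11 values of Adcy1 were both lower but far apart.

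The G protein alpha subunits that stimulate or inhibit adenylyl cyclase gave 0 calls among 6 tested, with the largest differences for Gnal (log2 fold change 0.31) and Gnai2 (-0.28), and 0 had an unadjusted p under 0.05. PKA subunits and inhibitors gave 0 calls among 8 tested, with 2 at an unadjusted p under 0.05 (15.2% over all genes), and the range was from -0.38 for the regulatory subunit gene Prkar1b to 0.38 for Prkar2a. Among 5 other cAMP effectors 0 were called and 2 had an unadjusted p under 0.05, a level that 15.2% of all genes tested reached. Creb1, the transcription factor that binds the cAMP response element, had the largest difference of these 5, at 14.0 and 13.02 FPKM in Control and 21.6 and 18.8 FPKM in Shh-Stk11. The groups of Creb1 did not overlap, but the log2 fold change of 0.58 (limma adjusted p = 0.0885) became 0.13 with the length and GC trend removed. Rapgef4, which encodes an EPAC protein, had the lowest value at -0.28.

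Among 8 tested genes of cGMP synthesis and response 0 were called by limma, with 3 at an unadjusted p under 0.05, beside 15.2% of all genes tested. Gucy1a2, a subunit of soluble guanylyl cyclase, was at 0.668 and 0.574 FPKM in Control and 1.63 and 0.937 FPKM in Shh-Stk11 (log2 fold change 0.90, limma adjusted p = 0.267). Npr1, the receptor for atrial natriuretic peptide, had the lowest log2 fold change of this list at -0.37 (limma adjusted p = 0.254). In the anchoring protein list, 9 of 11 tested genes had a positive log2 fold change, with a median of 0.05 beside -0.05 over all genes, and Akap2 was the lowest at -0.11. With the length and GC trend removed, Akap7 (-0.04) and Akap13 (-0.16) became negative. Both Shh-Stk11 values were above both Control values in 4 of the 11 and below in 0, beside 19.2% and 27.6% of all genes tested.

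**Figure D4:**
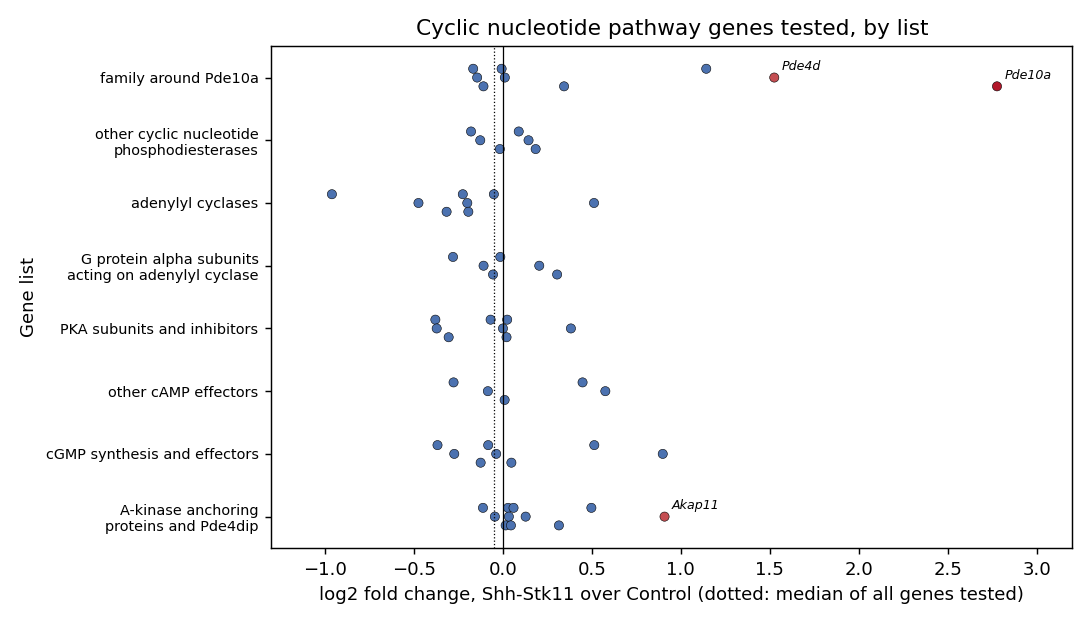
Log2 fold change of Shh-Stk11 over Control for each tested gene, by list, with the median of all genes tested as a dotted line. Pde10a (chosen for its rise), Pde4d and Akap11 are named in red, and the other genes did not pass the threshold.

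By Euclidean distance between centred log2(FPKM + 0.1) values over the 4 libraries, the genes closest to Pde10a were Areg (0.139), Ccdc83 (0.274), Pak3 (0.279), Rbm24 (0.379) and Ereg (0.532). Areg, the gene for the EGF receptor ligand amphiregulin, was at 11.0 and 10.9 FPKM in Control and 75.6 and 64.4 FPKM in Shh-Stk11. Ereg, the gene for another ligand of that receptor, was at 0.160 and 0.249 FPKM in Control and 3.15 and 2.38 FPKM in Shh-Stk11. These genes were selected for a pattern that includes the genotype difference, so their likeness is a description over 4 libraries.

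Pak3, a p21-activated kinase gene, was at 0.304 and 0.438 FPKM in Control and 3.49 and 2.57 FPKM in Shh-Stk11. Rbm24, which encodes an RNA-binding protein, was at 1.63 and 1.75 FPKM in Control and 9.73 and 11.6 FPKM in Shh-Stk11. Unlike Pde10a, it was higher in Shh-Stk11 2 than in Shh-Stk11 1. Ccdc83 was at 0.110 and 0.106 FPKM in Control and 1.17 and 1.29 FPKM in Shh-Stk11, and it too was higher in Shh-Stk11 2. Its Control values corresponded to about 6 and 4 reads, so its closeness to Pde10a depends on the pseudocount. The log2 fold change of Ccdc83 was 1.01 with a pseudocount of 1 and 3.39 with 0.01, where Pde10a was at 1.90 and 2.93.

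Markers of the cell types of the lung were read beside these values, 72 genes in 10 lists, of which 61 were tested. The ciliated cell list moved with genotype: 5 of 7 tested genes were called lower and 0 higher, beside 1.29% and 0.98% of all genes tested, and its summed level was 82.4 to 94.0 FPKM in Control and 25.8 to 29.1 FPKM in Shh-Stk11. Of 6 tested red blood cell genes 1 was called lower, beside 1.29% of all genes, and 5 had both Shh-Stk11 values under both Control values, beside 27.6%. Their list had sums of 3717 to 3863 FPKM in Control and 2490 to 2767 FPKM in Shh-Stk11. The other 8 lists held 0 calls in either direction.

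All 8 lung epithelial markers were present, with summed levels of 16560 to 18170 FPKM in Control and 8866 to 12990 FPKM in Shh-Stk11, most of it Sftpc. Of these 8, 4 (Cdh1, Nkx2-1, Sox9 and Krt8) had both Shh-Stk11 values above both Control values, 2 (Sftpc and Sox2) had both below and 2 (Epcam and Krt18) overlapped, where 19.2% of all genes tested had both above and 27.6% both below. The summed endothelial markers were at 587 to 689 FPKM in Control and 474 to 506 FPKM in Shh-Stk11, and neuronal markers at 17.4 to 22.8 FPKM and 13.4 to 13.5 FPKM. For both sums the groups did not overlap. Of the 7 endothelial markers, 6 had both Shh-Stk11 values below both Control values and 0 had both above, beside 27.6% and 19.2% of all genes tested. Their median log2 fold change was -0.38. Of the neuronal markers 2 of 7 passed the filter.

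In the other lists the summed levels overlapped between genotypes. They were 486 to 549 FPKM in Control and 458 to 540 FPKM in Shh-Stk11 for smooth muscle, 324 to 354 and 259 to 329 FPKM for mesenchyme, and 351 to 384 and 240 to 454 FPKM for immune cells. Of the 7 mesenchymal markers, 4 had both Shh-Stk11 values below both Control values and 0 had both above, beside 27.6% and 19.2% of all genes tested. Neuroendocrine markers summed to 26.4 to 27.5 FPKM in Control and 26.2 to 30.4 FPKM in Shh-Stk11. Of the 4 tested, 1 (Calca, 2.14 times the Control mean, limma adjusted p = 0.0533) was higher without overlap, and 2 were lower (Ddc, 0.559 times, limma adjusted p = 0.0631, and Syp). Heart muscle markers varied most between replicates, at 88.1 and 213 FPKM in Control and 119 and 40.3 FPKM in Shh-Stk11. The part of any cell type in the levels of Pde10a, Pde4d, Pde7b or Akap11 was not tested.

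The rise of Pde10a was similar with each library left out, from 2.67 to 2.88 on the log2 scale. A pseudocount of 1 lowered it to 1.90, since its Control level is under 1 FPKM, and a pseudocount of 0.01 raised it to 2.93. Pde7b stayed between 0.81 and 1.48 and Pde8a between 0.28 and 0.41 over all settings.

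**Figure D5:**
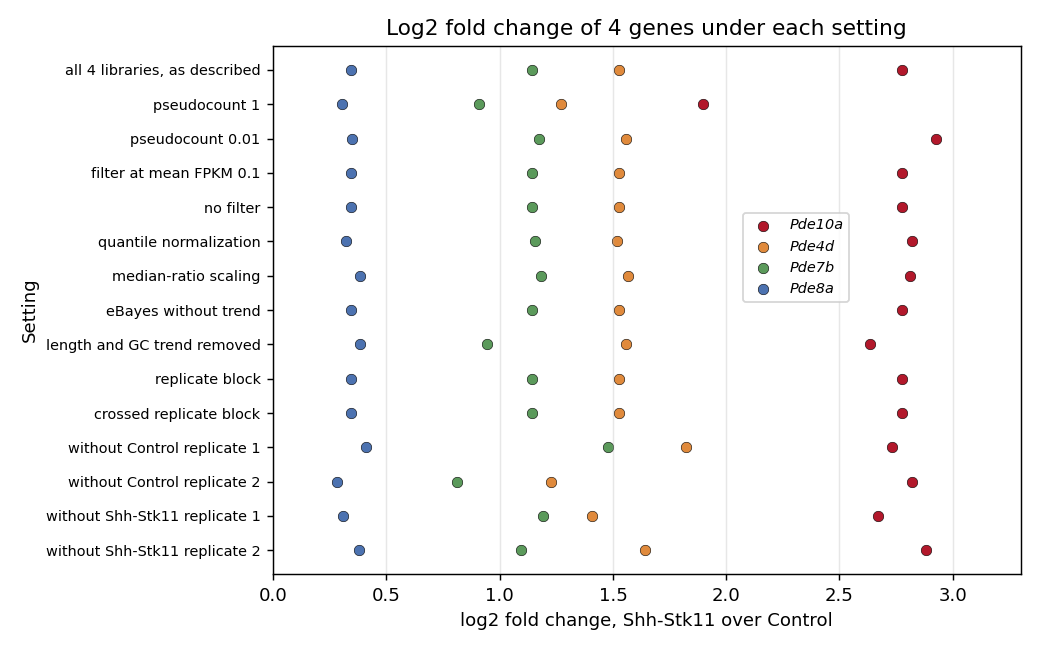
Log2 fold change of Shh-Stk11 over Control for Pde10a, Pde4d, Pde7b and Pde8a with all 4 libraries and under each of 14 alternative settings. Pde10a lies between 1.90 and 2.93 and Pde4d between 1.23 and 1.82, all above 0.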

How the data were processed

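Whole lungs of 2 Control and 2 Shh-Stk11 embryos were measured. By the study's methods, RNA of whole lungs was read from a single end, with at least a pair of biological replicates. The authors deposited FPKM values per gene and library, and the submitters' processing notes name TopHat2 2.0.13 and Cufflinks 2.2.1. The annotation and any scaling between libraries are not given in the sources used here. The notes name the builds GRCm38 and mm9 without a role.

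From these values, 13770 genes whose mean reached 0.5 FPKM were compared on log2(FPKM + 0.1) with limma 3.58.1 in R 4.3.3 (lmFit, eBayes with trend, genotype as the only term). Tests were two-sided, with Benjamini-Hochberg adjustment over all genes tested and a threshold of 0.05. A fold change on this scale understates that of low genes. Lengths and GC content came from the longest GENCODE M21 transcript, matched for 20242 symbols directly and 1918 through synonyms, which left 396 without a match. Reads were estimated from whole steps between low values, seen in 78.5% of 1717 low genes (steps taken as whole within 0.005 of the multiple). For a length of 2000 bases, this gave 0.0147 to 0.0181 FPKM per read.

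The members and lists were chosen with earlier results of these data known. The genes named are the members, the other phosphodiesterases, in each pathway list the genes past the threshold and the largest rise and fall, the 5 genes closest to Pde10a (predicted and small RNA genes left out) and Stk11. Xist, Ddx3y and single markers were named after their values were seen. The alternatives were pseudocounts of 1 and 0.01, a filter of 0.1 FPKM and none, quantile and median-ratio scaling, eBayes without trend, removal of a length and GC trend, a replicate block, and each library left out. The main limma fit was tested on simulated data with known changes and without a length or GC trend.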

Additional observations from a re-analysis of the deposited data

How the results depend on the processing

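Over 14 settings, 13 planned and 1 added after seeing the data, the log2 fold changes of Pde10a, Pde4d, Pde7b and Pde8a kept their sign. The difference of Pde10a moved by more than its pooled SD within groups (0.11 on the log2 scale) in 3 settings. It became 1.90 with a pseudocount of 1, 2.93 with 0.01 and 2.64 without the length and GC trend. Of these, 2.93 and 2.64 lay within its SE of 0.20 around 2.78. Genes called numbered 135 higher and 178 lower. They were 20 and 41 without a filter, 77 and 101 without the length and GC trend, and 15 to 64 higher and 23 to 127 lower with a library left out, where the lone library of a genotype was assumed to vary like the others. Members called higher besides Pde10a went from 1 to 0 without a filter, with the trend removed and in every omission of a library (0 to 0). With the replicate block, 6 genes were called higher and 7 lower, and 0 of these members. Deviations of same-numbered libraries correlated at -0.11 over 13770 genes, so the numbers were not taken as pairs. The crossed pairing, the setting added after seeing the data, called 360 higher and 315 lower, and 2 of the members. These were Pde4d (limma adjusted p = 0.0142) and Pde7b (0.0221).

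Differences near 0 changed sign. With quantile scaling Pde3a was at 0.0058 and Pde3b at -0.0046, and with median-ratio scaling Pde3a was at 0.034 and Pde2a at 0.025. After removing the length and GC trend Pde3b was at -0.20, Pde2a at 0.068 and Pde5a at -0.030. With a library left out, values ranged from -0.29 to 0.28 for Pde3a, -0.013 to 0.037 for Pde3b, -0.34 to 0.0052 for Pde4a, -0.24 to 0.026 for Pde7a, -0.17 to 0.14 for Pde2a, -0.11 to 0.29 for Pde8b and -0.31 to 0.090 for Akap2. The cause was not tested.

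With 2 libraries a genotype, every p rests on variance borrowed across genes. Genes near the filter rest on limited reads, on the longest transcript about 12 to 58 a library for Pde4c and 27 to 188 for Pde1c. FPKM sums transcripts, so isoforms were not compared.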
